A study of Mus with 30 samples.

Results

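The fibrillar collagen transcripts of the mouse heart were examined in 30 cardiac RNA-seq libraries. These are ENSMUST00000001547, ENSMUST00000031668 and ENSMUST00000087883, taken here as the transcripts of Col1a1, Col1a2 and Col3a1. They were chosen by identifier and not by their values, though with earlier results of these data known. They make up 3 of the 36503 transcript identifiers listed in the series. All 3 were present in all 30 tables. Cardiac tissue came from C57BL/6 mice, with 5 mice in each of 6 groups. Control mice received saline for 28 days and no drug. Every other group was infused for 28 days at 500 ng/kg/min with the pressor hormone angiotensin II (Ang II). The Ang II group was given saline beside the infusion. The drug groups were given ethoxysanguinarine (Ang II + ETH), baicalin (Ang II + BAI) or gastrodin (Ang II + GAS) at 5 mg/kg/day, or valsartan (Ang II + VAL), a blocker of the Ang II receptor, at 10.4 mg/kg/day. For the Control, Ang II and gastrodin groups the study's methods describe young adult males, with the left part of each heart used for sequencing.

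Fibrillar collagens are the tension-bearing fibres of the extracellular matrix. Type I collagen, the main collagen of the heart, is assembled from the chain of Col1a1 together with that of Col1a2, whereas type III collagen is made of the Col3a1 chain alone and forms finer, more compliant fibres. In the heart these chains are made mainly by fibroblasts, and pressure overload and Ang II are widely used to provoke their deposition, known as cardiac fibrosis. In the GRCm38.p6 assembly, which carries the coordinates of build mm10, Col1a1 lies on chromosome 11 (94936224 to 94953042), Col1a2 on chromosome 6 (4505618 to 4541543) and Col3a1 on chromosome 1 (45311538 to 45349706).

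The deposited files give 1 value per transcript and mouse. Each collagen was read from 1 transcript identifier, which need not cover all RNA of its gene. No other model of Col1a1 or Col3a1 was looked for. The values were read as FPKM, which scales for transcript length and library size, although no source used here names the unit. The number of reads behind each value is therefore unknown. The values of a library summed to between 562189 and 654188, and between 16808 and 20446 transcripts reached 1 FPKM. In bulk tissue, fewer fibroblasts and less collagen RNA per fibroblast cannot be told apart. Markers of fibroblasts, heart muscle cells and other cell types were not analysed here, since the reference table used pairs none of the identifiers with gene names, so the labelled tissue was not checked against its markers.

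The collagen transcripts were among the more abundant ones. Over the 30 mice, Col1a1 had a mean of 15.7 ± 4.82 FPKM, Col1a2 of 15.9 ± 9.30 FPKM and Col3a1 of 28.7 ± 8.86 FPKM (SD, n = 30). Of the 28298 transcripts listed in all tables, 92.4% had a lower mean than Col1a1 and 95.9% a lower mean than Col3a1. Col3a1 was above Col1a1 in 30 of 30 mice. The highest mouse had 3.45 times as much Col1a1 as the lowest and 3.0 times as much Col3a1. Col1a2 had the widest range, from 0 to 34.0 FPKM.

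Col1a1, the alpha1 chain of type I collagen, had a similar mean with and without Ang II, with a wide spread in both groups. The Control mice had 18.1, 12.9, 8.69, 12.4 and 21.8 FPKM, a mean of 14.7 ± 5.16 (SD, n = 5). The Ang II mice had 9.08, 17.3, 11.5, 14.8 and 22.7 FPKM, a mean of 15.1 ± 5.28 (SD, n = 5). The ranges of these groups overlapped over most of their width. In the drug groups the 5 mice had 15.6, 12.3, 11.4, 14.7 and 24.04 FPKM with ethoxysanguinarine and 19.5, 10.95, 13.1, 19.5 and 22.8 FPKM with baicalin. With gastrodin they had 13.5, 16.7, 15.5, 17.0 and 14.1 FPKM, and with valsartan 11.9, 13.3, 13.7, 29.96 and 13.8 FPKM. The gastrodin mice lay closest together, with an SD of 1.55 FPKM, or 10.1% of the mean, against 28.7% to 45.6% in the other groups, although the difference in spread was not tested. The valsartan group held 1 mouse, 5124, with more than any other of the 30.

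Col3a1, the chain of type III collagen, was highest in the mean of the Ang II group. The Control mice had 30.6, 22.9, 17.7, 22.5 and 37.0 FPKM, a mean of 26.1 ± 7.64 (SD, n = 5). The Ang II mice had 17.3, 37.97, 22.7, 31.9 and 51.0 FPKM, a mean of 32.2 ± 13.2 (SD, n = 5). The Ang II group spanned both the lowest values of the Control group and values above all of it. With ethoxysanguinarine the mice had 20.4, 25.9, 17.1, 22.8 and 33.9 FPKM, the lowest group mean at 24 ± 6.42 (SD, n = 5). With baicalin they had 30.8, 19.9, 28.0, 36.3 and 40.9 FPKM, with gastrodin 23.1, 33.3, 27.7, 31.8 and 28.2 FPKM, and with valsartan 20.8, 22.7, 28.8, 51.2 and 25.1 FPKM. All these groups overlapped the Ang II group. Valsartan mouse 5124 and Ang II mouse 5156 were the highest of the 30.

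The Col1a2 transcript, for the alpha2 chain of type I collagen, divided the mice into 2 sets with a wide gap between them. These values are those of 1 transcript identifier, and another model that was present where it was low is described further on. The Control mice had 22.2, 14.9, 10.8, 16.0 and 2.43 FPKM, and the Ang II mice 12.5, 25.5, 0.289, 21.1 and 1.35 FPKM. With ethoxysanguinarine the values were 0, 15.8, 13.6, 0 and 27.3 FPKM, and with gastrodin 17.1, 21.2, 0, 22.03 and 18.9 FPKM. In each of these groups 1 or 2 mice had 2.43 FPKM or less under this identifier and the rest had more than 10 FPKM. The baicalin mice had 24.2, 16.8, 20.8, 24.1 and 29.95 FPKM and the valsartan mice 14.4, 13.6, 18.0, 34.0 and 18.4 FPKM, with no mouse in the lower set. In all, 6 mice lay at or below 2.43 FPKM (3 of them listed at 0) and 24 at or above 10.8 FPKM, with none between. The lower set comprised 1 Control, 2 Ang II, 2 ethoxysanguinarine and 1 gastrodin mouse, so the low level was found with and without Ang II.

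**Figure D1:**
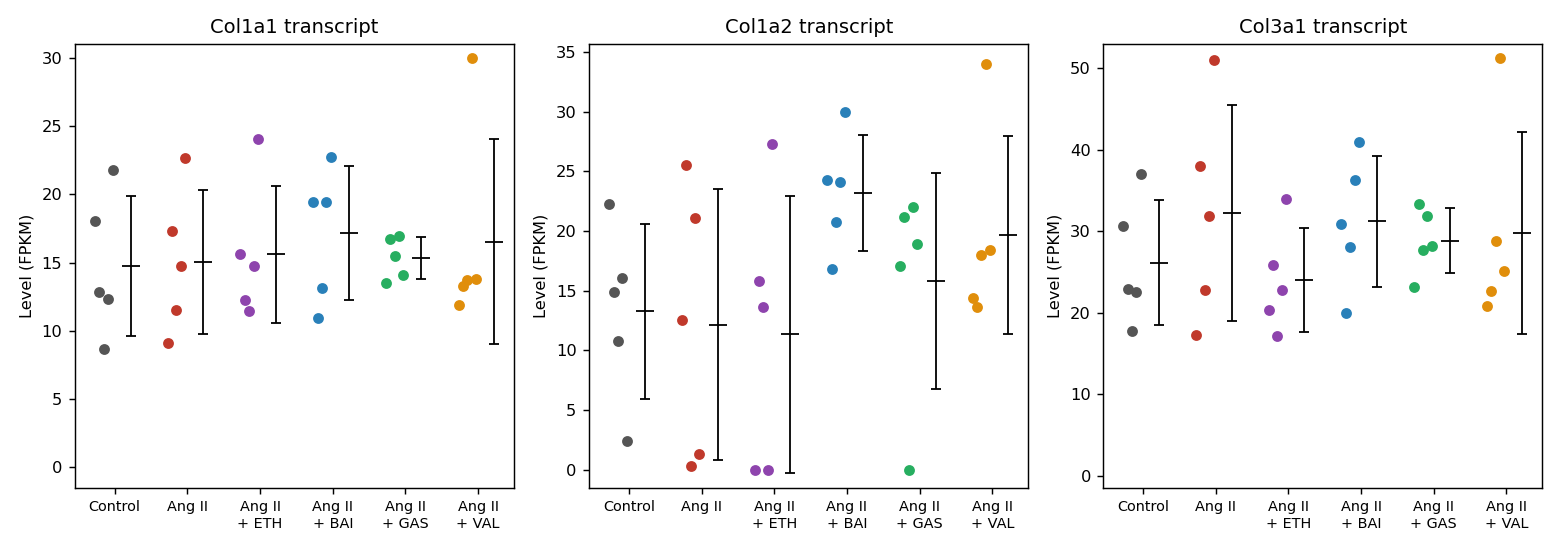
Level in FPKM (vertical axis, linear) of the Col1a1, Col1a2 and Col3a1 transcripts in the 6 groups. Points are single mice (5 per group), with the group mean and SD drawn next to them. Col1a1 and Col3a1 overlap in all groups, and Col1a2 is at or below 2.43 FPKM in 6 of the 30 mice.

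In the order of the group means, Col1a1 ran from 17.2 FPKM with baicalin through valsartan, ethoxysanguinarine, gastrodin and Ang II to 14.7 FPKM in Control. Neighbouring means differed by 0.269 to 0.925 FPKM, well under their pooled SDs of 3.71 to 6.40 FPKM. Col3a1 ran from 32.2 FPKM with Ang II through baicalin, valsartan, gastrodin and Control to 24 FPKM with ethoxysanguinarine, and no neighbours differed by more than 2.71 FPKM. The order for Col1a2 ran from 23.2 ± 4.85 FPKM (SD, n = 5) with baicalin through valsartan, gastrodin, Control and Ang II to 11.4 ± 11.6 FPKM (SD, n = 5) with ethoxysanguinarine. For each of the 3 transcripts, every pair of neighbouring groups overlapped in range and differed by less than its pooled SD.

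The first comparison asks how 28 days of Ang II altered the heart, and none of the collagen transcripts passed the test. On the log2(FPKM + 1) scale, Col1a1 was 0.03 higher in the Ang II group than in Control (standard error 0.28, adjusted p = 0.982 from limma). The 95% confidence interval ran from -0.59 to 0.66. Col3a1 was 0.24 higher (standard error 0.29, 95% interval -0.41 to 0.90, adjusted p = 0.839 from limma), and an exact permutation test of this transcript alone gave p = 0.429 (two-sided). Its difference was 0.0548 without Ang II mouse 5156 and 0.43 without Ang II mouse 5143. These intervals do not reach a doubling, a difference of 1 on this scale, for either transcript. Col1a2 differed by -0.68 with a standard error of 0.91 (adjusted p = 0.853 from limma), and its interval, from -2.71 to 1.34, was far wider. Of 18354 transcripts tested, 7 passed an adjusted p under 0.05, which is 0.0381%, and 0 of the 3 collagens were among them. At an unadjusted p under 0.05 from limma the numbers were 1676 of all transcripts (9.13%) and 0 of the 3. The Ang II and Control mice did not overlap in 2.26% of transcripts, and overlapped in all 3 collagens.

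The comparisons of each drug with Ang II ask what the compounds changed in infused hearts, and here too 0 of 3 collagen transcripts passed in any comparison. All 4 use the same Ang II mice and are not independent of each other. The share of all transcripts at an adjusted p under 0.05 was 0.132% with ethoxysanguinarine, 0.0165% with baicalin, 0.022% with gastrodin and 0.022% with valsartan. At an unadjusted p under 0.05 from limma it was 8.29%, 9.75%, 6.21% and 6.23%, again with 0 of the 3 collagens in each. The groups did not overlap in 2.18%, 2.86%, 1.43% and 1.33% of transcripts, and they overlapped in all 3 collagens in all 4 comparisons. The smallest exact p that groups of 5 allow is 0.00794, so an unadjusted exact test of a single transcript can reach 0.05. This does not tell what size of difference groups of 5 could detect.

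With ethoxysanguinarine, Col3a1 differed by -0.35 from Ang II on the log2(FPKM + 1) scale (standard error 0.28, adjusted p = 0.779 from limma). Its 95% interval ran from -0.99 to 0.29, and the difference was -0.16 without Ang II mouse 5156 and -0.54 without Ang II mouse 5143. Col1a1 differed by 0.06 in the same mice (standard error 0.26, adjusted p = 0.974 from limma). The differences with gastrodin were 0.08 for Col1a1 and -0.07 for Col3a1, with intervals of -0.39 to 0.55 and -0.65 to 0.51. With baicalin they were 0.19 and 0.01, and with valsartan 0.11 and -0.09. The median difference over all transcripts tested lay between -0.05 and -0.01 in these 4 comparisons, close to 0. Without valsartan mouse 5124 the difference of Col1a1 changed sign, to -0.12 (adjusted p = 0.934 from limma).

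Col1a2 gave larger but less certain differences. It was 1.66 higher with baicalin than with Ang II on the log2(FPKM + 1) scale (standard error 0.81, 95% interval -0.14 to 3.47, adjusted p = 0.541 from limma, exact permutation p = 0.103). With valsartan it was 1.38 higher (standard error 0.83, adjusted p = 0.852 from limma), with gastrodin 0.59 higher and with ethoxysanguinarine 0.36 lower. Single Ang II mice moved these differences. Leaving out Ang II mouse 5130 or 5156, the pair with little of this transcript, gave 1.03 or 1.24 with baicalin and 0.75 or 0.96 with valsartan. Leaving out mouse 5128, the Ang II mouse with most of it, gave 2.12 and 1.84 (adjusted p = 0.537 and 0.853 from limma).

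**Figure D2:**
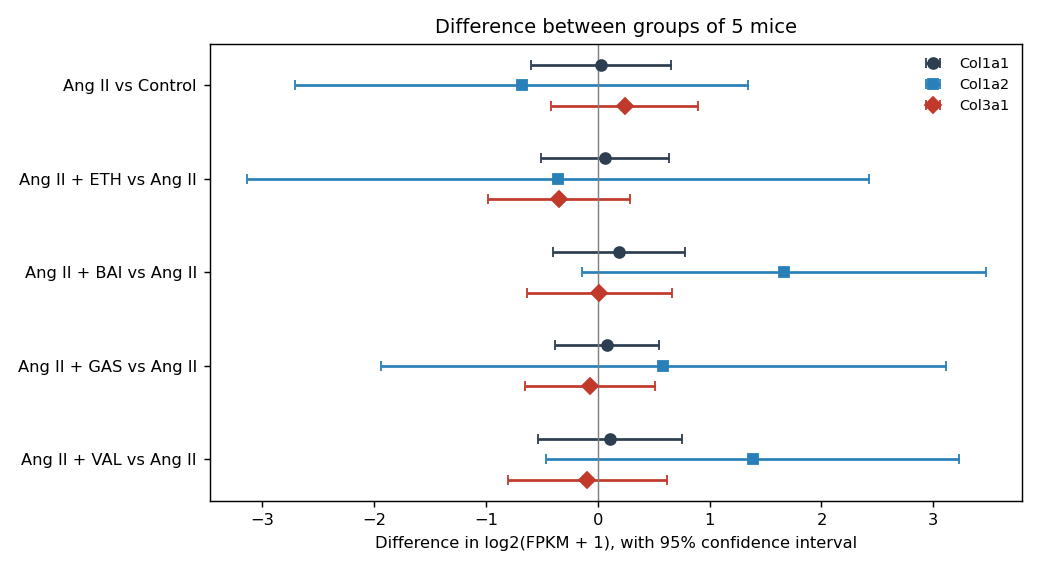
Difference in log2(FPKM + 1) between groups of 5 mice (horizontal axis), with its 95% confidence interval from limma, for the 3 transcripts in 5 comparisons (vertical axis). All 15 intervals include 0, and those of Col1a2 are the widest in each comparison.

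The mice with little of the Col1a2 transcript did not lack the other collagens. In these 6 mice Col1a1 lay between 11.5 and 22.7 FPKM and Col3a1 between 20.4 and 51.0 FPKM, within the ranges of the other 24 (8.69 to 29.96 and 17.1 to 51.2 FPKM). A merged transcript model, MERGE.18018.2, was present in exactly the same 6 mice. It had 23.7 FPKM in Control mouse 5153, 13.8 and 31.0 FPKM in Ang II mice 5130 and 5156, 20.2 and 20.0 FPKM in ethoxysanguinarine mice 5141 and 5123, and 20.0 FPKM in gastrodin mouse 5120. It was listed at 0 in the other 24. Of 36503 identifiers, it was the 1 that had 10 FPKM or more in each of the 6 mice and under 1 FPKM in each of the other 24, a search made after the values of Col1a2 were seen. The files give no position for this model, so it may or may not be a model of the Col1a2 gene. Less Col1a2 RNA in these 6 mice and the assignment of its reads to another model therefore cannot be told apart, and a low value of the Col1a2 identifier is not a measure of the gene as a whole.

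When the values of Col1a2 and MERGE.18018.2 were added together in each mouse, the gap between the 2 sets of mice was gone. The search fixed this outcome in advance. Any identifier that met it would have raised all 6 low mice to 10 FPKM or more. The sum lay between 10.8 and 34.0 FPKM with a median of 20.0, a 3.14-fold range close to that of Col1a1. The group means of the sum were 18.0 ± 6.12 FPKM in Control, 21.1 ± 8.20 with Ang II, 19.4 ± 5.25 with ethoxysanguinarine, 23.2 ± 4.85 with baicalin, 19.8 ± 1.95 with gastrodin and 19.7 ± 8.26 with valsartan (SD, n = 5 each). Between Ang II and Control the sum differed by 0.20 on the log2(FPKM + 1) scale, where Col1a2 alone differed by -0.68. The difference from Ang II was 0.18 with baicalin and -0.09 with valsartan, where Col1a2 alone gave 1.66 and 1.38. No test is attached to the sum, since it was formed after the values were seen. The shifts from the differences of Col1a2 alone also follow in part from the choice of this model.

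**Figure D3:**
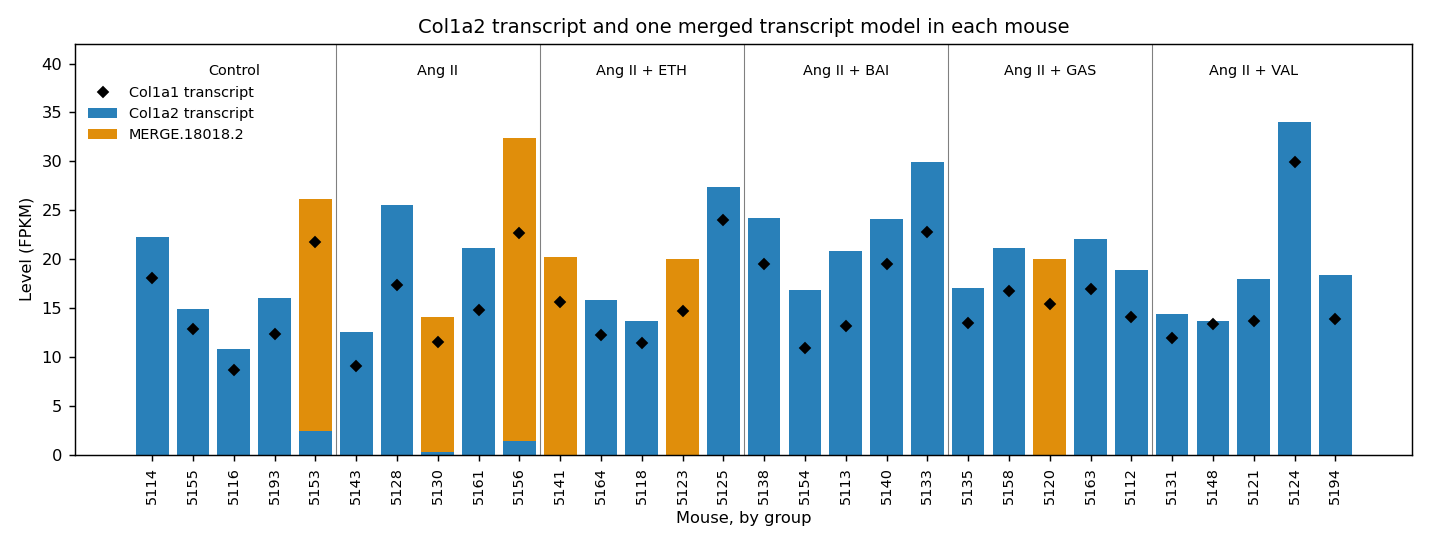
Level in FPKM (vertical axis, linear from 0) of the Col1a2 transcript and of MERGE.18018.2, stacked in 1 bar per mouse, with the Col1a1 transcript as a black diamond. Mice are ordered by group along the horizontal axis. The merged model fills the bar in the 6 mice in which Col1a2 is low, and the Col1a1 diamond lies below the top of the bar in all 30 mice.

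Col1a1 and Col3a1 rose and fell together from mouse to mouse. Over the 30 mice their log2(FPKM + 1) values had a Pearson r of 0.898 and a Spearman rho of 0.884 (permutation test, two-sided, p = 1e-05 for each, the smallest that 100000 resamples can give, adjusted p = 3e-05 over the 3 pairs of members). Without the 2 mice farthest from the median of Col1a1, 5124 and 5125, r was 0.888. The correlation was also present within the groups, where deviations from the group means gave r = 0.940 and rho = 0.905 (permutation within groups, p = 1e-05, adjusted p = 3e-05). Ranked by r with Col1a1 among 19470 transcripts with a mean of at least 1 FPKM, Col3a1 was in place 2, and Col1a1 had the same place in the ranking for Col3a1. The median r of these transcripts with Col1a1 was 0.12, and 5% of them exceeded 0.504.

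The levels of a mouse's collagens also moved with measures of its whole library. Col1a1 was higher in libraries with a smaller sum of values (r = -0.592, rho = -0.561, permutation p = 0.00064 and 0.00136, adjusted p = 0.00144 and 0.00204 over 6 such relations) and in those with more transcripts at 1 FPKM or more (r = 0.689, rho = 0.672, permutation p = 3e-05 and 4e-05, adjusted p = 0.00018 and 0.00024). Without the 2 libraries farthest from the median of the measure, r was -0.599 and 0.663. Within groups the r values were -0.602 and 0.753. For Col3a1 the same r values were -0.374 and 0.554 over all mice, and -0.455 and 0.703 within groups (permutation p = 0.0409 and 0.00179 over all mice, adjusted p = 0.0409 and 0.00268). Its rho values over all mice were -0.432 and 0.599 (permutation p = 0.0182 and 0.0005), and without the 2 farthest libraries its r was -0.42 and 0.509. The correlation between Col1a1 and Col3a1 remained at r = 0.912 with all libraries scaled to the same sum, at 0.905 after the regression on the sum and at 0.855 after that on the number of transcripts. These library measures were chosen after the data were seen. Over 19471 transcripts the median r with the sum was -0.106. An r at or below that of Col1a1 was found in 0.858% of them, and at or below that of Col3a1 in 10.9%. No such share was computed for the number of transcripts at 1 FPKM or more. Whether either relation is particular to collagens was not tested.

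The Col1a2 transcript followed the other chains within the set of 24 mice that had 10.8 FPKM or more of it. There r was 0.944 with Col1a1 and 0.948 with Col3a1, with rho of 0.941 and 0.936. These values and those for the 6 other mice are given with no test, since the sets were drawn from the Col1a2 values themselves. Without the 2 mice farthest from the median of Col1a1 or Col3a1, r was 0.929 and 0.937. In the 6 other mice MERGE.18018.2 had an r of 0.944 and a rho of 0.943 with Col1a1, and an r of 0.818 and a rho of 0.6 with Col3a1. Col1a2 itself, at 0 to 2.43 FPKM in these mice, had an r of 0.772 with Col1a1 and 0.803 with Col3a1. Without the 2 mice farthest from the median of Col1a1 or Col3a1, the r of MERGE.18018.2 was 0.986 and 0.0993, and that of Col1a2 was -0.984 and -0.118, so all of these but the first rest on 2 mice. With the sets pooled, r was 0.10 between Col1a1 and Col1a2 and 0.19 between Col1a2 and Col3a1 (permutation p = 0.602 and 0.315), and rho was 0.509 and 0.617 (permutation p = 0.00442 and 0.00038). Within groups rho was 0.169 and 0.284 and did not pass (permutation p = 0.394 and 0.152). The pooled values mix 2 separate sets and are given for completeness. For the sum of Col1a2 and MERGE.18018.2, r over 30 mice was 0.949 with Col1a1 and 0.920 with Col3a1, values given with no test.

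**Figure D4:**
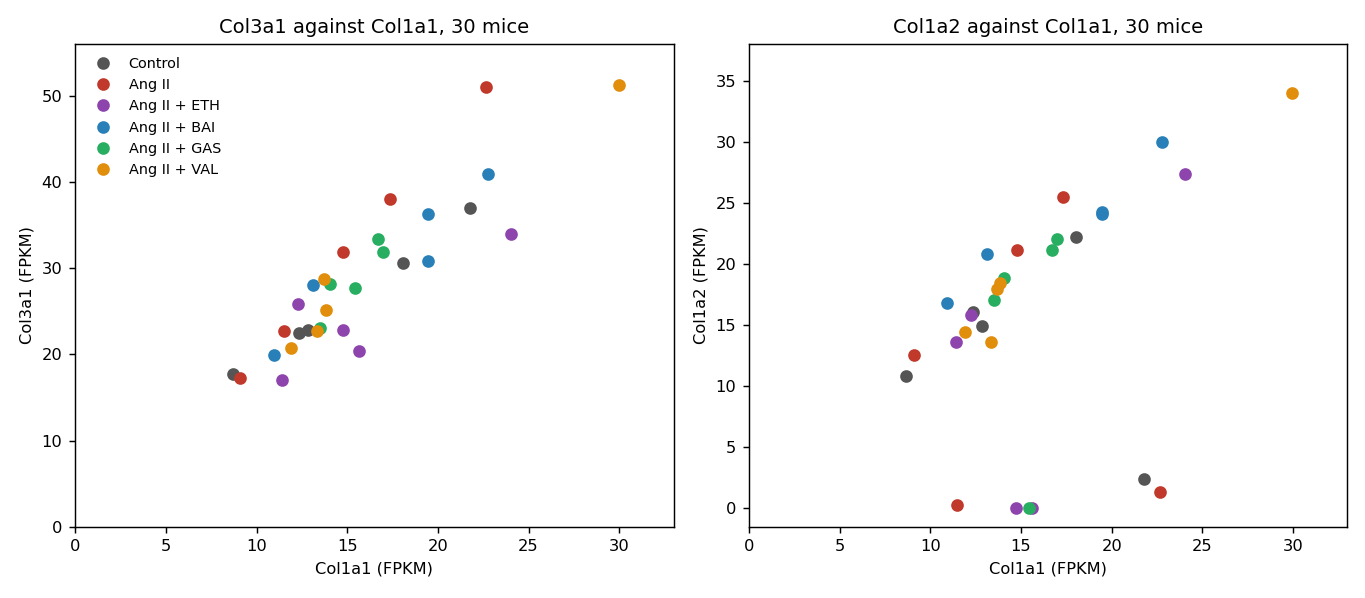
Level of Col3a1 (left) and of Col1a2 (right) against that of Col1a1, all in FPKM on linear axes, with 1 point per mouse coloured by group. Col3a1 rises with Col1a1 over the 30 mice (r = 0.898 on the log2(FPKM + 1) scale, n = 30), whereas Col1a2 does so in 24 mice and is at or below 2.43 FPKM in the other 6.

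The transcripts whose pattern over the 30 mice was most like the mean of the collagens were ENSMUST00000040523 and ENSMUST00000086430. Likeness was the Pearson r of log2(FPKM + 1) with the mean of the 3 members' standardised values, over 19468 transcripts. It was 0.836 for ENSMUST00000040523, which ranged from 1.47 to 5.42 FPKM, and 0.81 for ENSMUST00000086430, which ranged from 2.79 to 9.13 FPKM. Both were highest in valsartan mouse 5124, as the collagens were. Their r was 0.903 and 0.878 with Col1a1 and 0.893 and 0.859 with Col3a1, but 0.14 for each with Col1a2. At the other end, ENSMUST00000174561 and ENSMUST00000107675 each had an r of -0.67. The former had a median of 0 FPKM and a maximum of 5.996 FPKM, and the latter ranged from 2.33 to 13.03 FPKM. For ENSMUST00000174561, r was -0.413 with Col1a1, -0.606 with Col1a2 and -0.526 with Col3a1. Its maximum was in Ang II mouse 5130, which had little of the Col1a2 identifier. For ENSMUST00000107675 the same r values were -0.671, -0.266 and -0.607.

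The balance of the Col3a1 to the Col1a1 transcript, a measure of RNA and not of collagen protein, varied less than either level. The ratio of Col3a1 to Col1a1 within a mouse, which does not depend on the scaling of the library, had a mean of 1.83 ± 0.234 (SD, n = 30). In Control it was 1.70, 1.78, 2.03, 1.82 and 1.70, and with Ang II 1.90, 2.19, 1.98, 2.16 and 2.25. Of the Ang II mice, 3 of 5 lay above every Control mouse. On the log2 scale, with 1 FPKM added to each value, the ratio was 0.21 higher with Ang II (1.01 ± 0.117 against 0.80 ± 0.0874, SD, n = 5 each). An exact permutation test gave p = 0.0238 (two-sided), and the adjusted p over the 10 ratio comparisons made was 0.106, so the difference did not pass after adjustment.

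With each drug the ratio was lower than with Ang II alone, and none of these differences passed after adjustment either. The adjusted test was limited. A ratio comparison that alone reached the smallest exact p, 0.00794, had an adjusted p of 0.0794 (exact permutation). With ethoxysanguinarine the ratio was 1.30, 2.11, 1.50, 1.54 and 1.41, so that 4 of 5 mice lay below every Ang II mouse. The same was true of 4 of 5 mice with baicalin, 4 of 5 with valsartan and 3 of 5 with gastrodin. The log2 difference was -0.41 (0.60 ± 0.25 against 1.01 ± 0.117, SD, n = 5 each, exact permutation p = 0.0238, adjusted p = 0.106). With valsartan the ratio was 1.75, 1.70, 2.10, 1.71 and 1.82, a log2 difference of -0.20 (exact permutation p = 0.0317, adjusted p = 0.106). With baicalin it was 1.58, 1.82, 2.13, 1.86 and 1.80 and the difference was -0.18 (exact permutation p = 0.0556, adjusted p = 0.139). With gastrodin it was 1.71, 1.995, 1.79, 1.87 and 2.01 and the difference was -0.15 (exact permutation p = 0.0714, adjusted p = 0.143). These 4 comparisons share the Ang II mice with each other and with the comparison against Control, so a high value in those 5 mice enters all of them.

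**Figure D5:**
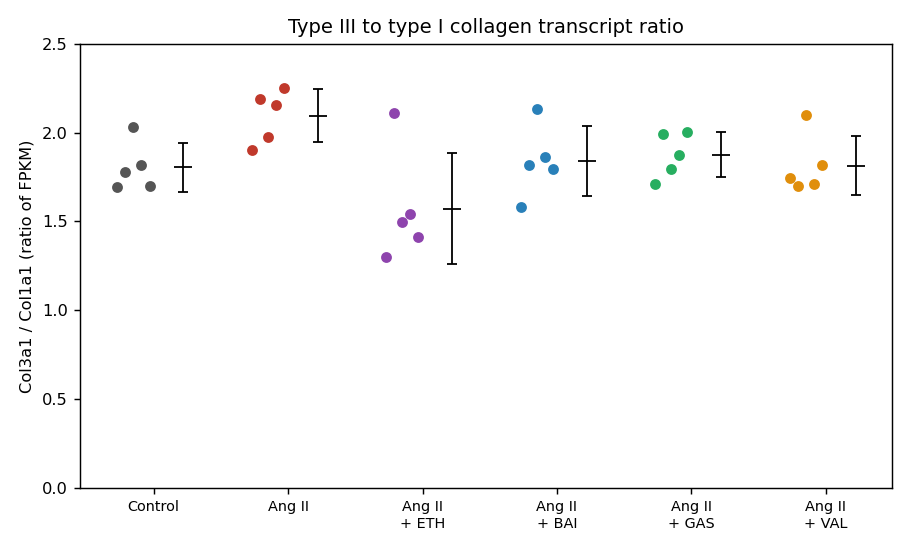
Ratio of Col3a1 to Col1a1 within each mouse (vertical axis, ratio of FPKM, linear from 0) in the 6 groups. Points are single mice (5 per group), drawn with the group mean and SD. The Ang II group has the highest mean (2.10) and the ethoxysanguinarine group the lowest (1.57), and in the latter 1 mouse lies at 2.11.

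The ratio of Col1a1 to Col1a2, the chains that make up type I collagen, has the 6 low values of the Col1a2 identifier as denominators in 4 groups. It lay between 8.97 and 39.8 in the 3 of those mice with any Col1a2, and no ratio can be given for the 3 at 0. Among the groups with no such mouse it was 0.731 ± 0.0839 with baicalin and 0.84 ± 0.0936 with valsartan (SD, n = 5 each). Of the 5 comparisons none passed (exact permutation p from 0.31 to 1, with 1 FPKM added to each value). Against the sum of Col1a2 and MERGE.18018.2, Col1a1 had a ratio of 0.781 ± 0.0715 (SD, n = 30), with group means from 0.724 with Ang II to 0.84 with valsartan.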

How the data were processed

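Cardiac RNA, depleted of ribosomal RNA, was sequenced from 5 mice in each of 6 groups, assigned by the sample labels. This is fewer per group than the study's methods state. Each file the authors deposited lists transcripts of 1 mouse with values taken here to be FPKM. Neither the unit nor the aligner, quantifier and annotation could be read from the labels, the files or the methods. Build mm10 and limma are named in the submitters' processing notes, and DESeq in the paper. As the values are not counts, no count model was used, and depth is unknown. Each pair of groups (10 libraries) was fitted on log2(FPKM + 1) by limma 3.58.1 (R 4.3.3) with its variance trend, keeping transcripts that reached 1 FPKM in 5 libraries or more. All tests were two-sided. Adjusted p-values from limma are Benjamini-Hochberg values over all transcripts tested, those of correlations and ratios over the number of relations given beside them, and exact p-values of single transcripts are unadjusted. Single transcripts and ratios were also tested over all 252 divisions into 5 and 5 (exact permutation), and correlations with 100000 permutations (SciPy 1.17.1). Figures were drawn with matplotlib 3.10.9.

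The members and tests were chosen with earlier results of these data known. Beside the members, the 2 transcripts most and the 2 least like them were to be named. The reference table pairs 0 genes with Ensembl identifiers, so lists of matrix genes and cell type markers set up by symbol were not analysed here, and no sequence was used. The labels do not say whether mice shared a litter or a sequencing run. The correlation between 2 libraries was 0.844 at most (435 pairs), so none was a copy of another.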

Additional observations from a re-analysis of the deposited data

Results flagged for a closer look

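In 30 checks of the highest and lowest mouse of a group of 5, for the 3 levels and the 2 ratios, 6 values stood well outside the other 4 mice. About 1 in 20 such checks would do so by chance, and the 6 are not independent, since they come from 3 mice. Valsartan mouse 5124 stood apart in every collagen. It had 29.96 FPKM of Col1a1 against 11.9 to 13.8 FPKM in the other valsartan mice, 34.0 FPKM of Col1a2 against 13.6 to 18.4 FPKM, and 51.2 FPKM of Col3a1 against 20.8 to 28.8 FPKM. Gastrodin mouse 5120 was at 0 FPKM of Col1a2 against 17.1 to 22.03 FPKM in the others. Its log2 ratio of Col1a1 to Col1a2, with 1 FPKM added to each, was 4.04 against -0.40 to -0.32. The same log2 ratio was 2.73 in Control mouse 5153 against -0.35 to -0.20 in the other Control mice. The other mice with little Col1a2 were not marked, since their groups hold 2 of them each.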

How the results depend on the processing

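No collagen transcript passed an adjusted p under 0.05 (limma) in any comparison under any setting run, whether all 6 groups in 1 fit, quantile normalization, equal sums, a pseudocount of 0.1, another filter, no trend or each mouse left out. The adjusted p of Col1a1 and Col3a1 was never under 0.643 (limma). As these differences are small against their errors, their sign turned in places. Leaving out each mouse, Col1a1 ranged from -0.13 to 0.18 for Ang II against Control, and against Ang II from -0.0947 to 0.22 (ethoxysanguinarine), -0.0711 to 0.24 (gastrodin) and -0.12 to 0.26 (valsartan). Col3a1 ranged from -0.18 to 0.20 (baicalin), -0.26 to 0.12 (gastrodin), -0.30 to 0.093 (valsartan) and, with no change of sign, -0.54 to -0.16 (ethoxysanguinarine), and from 0.0548 to 0.43 for Ang II against Control. Col1a1 with baicalin ranged from 0.0403 to 0.35. Col1a2 ranged from -1.14 to -0.0454 for Ang II against Control, 1.03 to 2.12 (baicalin), 0.75 to 1.84 (valsartan), -0.99 to 0.28 (ethoxysanguinarine) and -0.04996 to 1.46 (gastrodin), and the log2 ratio of Col1a1 to Col1a2 from -0.23 to 1.00 (ethoxysanguinarine) and -1.38 to 0.07004 (gastrodin).

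With MERGE.18018.2 added to Col1a2, a setting chosen after seeing the data, the difference of Col1a2 turned to 0.20 for Ang II against Control, -0.0114 with gastrodin and -0.0931 with valsartan. The log2 ratio of Col1a1 to Col1a2 turned to -0.17 for Ang II against Control, 0.0079 with baicalin, 0.0928 with gastrodin and 0.20 with valsartan. The correlations of Col1a2 became 0.949 with Col1a1 and 0.920 with Col3a1 over 30 mice, and 0.967 and 0.947 within groups. Without the 2 mice farthest from the median of Col1a1, the correlation of Col1a1 with this sum was 0.944 over the remaining mice. For Col1a2 alone, without MERGE.18018.2, it was -0.0432 with the same 2 mice left out.

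The correlation of Col1a1 with Col3a1 stayed between 0.879 and 0.912 over the 4 alternatives run. The log2 ratio of Col3a1 to Col1a1 kept its sign in all 55 alternatives, with an adjusted p never under 0.0794 (exact permutation). That value is the floor of the adjusted test. Each alternative was adjusted beside the main p-values of the other ratio comparisons. The smallest exact p, 0.00794, then gave an adjusted p of 0.0794 (ethoxysanguinarine without mouse 5164, exact permutation). No alternative of this ratio could therefore pass after adjustment, and no conclusion is drawn from their not passing. Without a pseudocount the ratio to Col1a2 has no value for the comparisons of ethoxysanguinarine and gastrodin, since mice at 0 are among them. No paired analysis was made because the labels do not tie any mouse to a mouse of another group. The depth is unknown, so its part in the precision was not tested.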
